A study of Mus musculus with 6 samples.

Results

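The T cell receptor signalling genes described here are 39 listed genes that encode receptor and co-receptor chains, accessory receptors, proximal kinases, adaptors, the NFAT and CARMA arm, and negative regulators. They were chosen by symbol from the 18288 genes measured, and all 39 had values and passed the filter on low values. Expression was measured by RNA sequencing of poly(A) messenger RNA from mouse CD8+ T cells that were activated in culture and collected on day 2, in 3 libraries labelled Nae1T-KO and 3 labelled Nae1WT. The labels name neither a Cre driver, the deleted part of Nae1, the activating stimulus, strain, sex nor age, and call the libraries biological replicates without saying whether each came from its own mouse, so part of the spread behind each p-value may be technical. Sex as read below differed within each group, so neither group came from a single mouse. Nae1 encodes the regulatory subunit of the enzyme that activates NEDD8, a ubiquitin-like protein whose best known substrates are the cullins. The question is how transcript levels differ between cells of the 2 genotypes.

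In a T cell the antigen receptor has no enzyme of its own. Signals pass through the CD3 and zeta chains, whose tyrosine motifs are phosphorylated by LCK, a kinase held at the CD8 co-receptor, and then bind ZAP70. ZAP70 phosphorylates the scaffolds LAT and SLP-76, which gather the enzymes and exchange factors that lead to calcium and NFAT, to PKC theta and the CARMA1, BCL10 and MALT1 complex, and to RAS. Phosphatases, ubiquitin ligases and diacylglycerol kinases limit the signal.

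Values are normalized counts, reads divided by 1 size factor per library. The 6 libraries held 15628252 to 25444653 reads assigned to genes. Nae1 itself had normalized counts of 390.3, 338 and 367 across Nae1T-KO libraries, against 1601, 1806 and 1882 across Nae1WT libraries, and its log2 fold change (Nae1T-KO over Nae1WT, as throughout) was -2.27 (SE 0.09, limma adjusted p = 5.03e-07). The defining CD8 T cell genes were high in all 6 libraries. Of 9 listed CD8 T cell markers 8 were tested, with 0 called higher and 2 lower in Nae1T-KO. The 2 were Cd3g, described below, and Prf1 (log2 fold change -0.38, limma adjusted p = 0.0131). Ifng did not pass, but its groups were apart and lower in Nae1T-KO (log2 fold change -0.93, limma adjusted p = 0.0674). Libraries also differed in sex as read from Xist and Y-linked genes: Nae1T-KO replicates 1 and 2 and Nae1WT replicate 3 read as female and the other 3 as male, so sex is not balanced between the groups, and differences within same-sex pairs are given below for the genes past the threshold. The summed normalized count of B cell markers (10 of 12 listed had values) was 219, 623 and 294 across Nae1T-KO libraries against 250.5, 241 and 372 across Nae1WT libraries, and that of erythroid markers was 376, 2058 and 203 across Nae1T-KO libraries against 145, 319 and 654 across Nae1WT libraries, both highest in Nae1T-KO replicate 2. Summed myeloid and dendritic cell markers (8 of 13 had values) were 154, 253 and 189 across Nae1T-KO libraries against 106, 71.1 and 90.6 across Nae1WT libraries, so the groups did not overlap, and CD4 T cell markers 2662, 1965 and 1521 across Nae1T-KO libraries against 1233, 1374 and 1910.2 across Nae1WT libraries, which overlapped. Of the 8 myeloid and dendritic cell markers, 4 were tested. Xcr1, a marker of cross-presenting dendritic cells, had normalized counts of 10.1, 17.6 and 15.1 across Nae1T-KO libraries against 4.91, 2.09 and 3.81 across Nae1WT libraries. It was called higher in Nae1T-KO (log2 fold change 1.75, limma adjusted p = 0.0350). Xcr1 met the filter of 10 normalized counts in 3 libraries only through the group where it was high, so this call gives no support for a difference. Cd68, the most abundant of the 8, had 55.9, 67.0 and 82.8 across Nae1T-KO libraries against 45.4, 42.9 and 46.4 across Nae1WT libraries, and did not pass. Each of the 8 had a higher mean in Nae1T-KO, from 1.527-fold for Cd68 to 6.015-fold for Cd14, which had at most 13.2 normalized counts. Mpeg1 (2.68-fold, groups apart) and Lyz2 (2.51-fold, groups overlapping) did not pass (limma adjusted p = 0.0719 and 0.0993). Lyz2 had at most 54.6 normalized counts and Itgam at most 11.2, while Cd4 had 20.1 to 119. In the CD4 T cell list Cxcr5 was called lower in Nae1T-KO (log2 fold change -1.445, limma adjusted p = 0.0250). Il13, Il5 and Cd40lg went the other way, 2.83-fold, 1.93-fold and 1.67-fold higher with groups apart. They did not pass (limma adjusted p = 0.1165, 0.0855 and 0.129), and 0 of the 9 genes tested were called higher. Most of the sum came from Ccr4, with means of 1278 in Nae1T-KO and 1027 in Nae1WT, and Cd4 itself overlapped. The sum is thus not a measure of CD4 T cell content. NK and gamma-delta T cell markers (6 of 10 had values) summed to 88.4, 56.4 and 74.7 across Nae1T-KO libraries against 67.5, 37.6 and 58.6 across Nae1WT libraries. The part of these cells in the results below was not tested, and in bulk samples fewer cells of a type and less RNA per cell cannot be told apart.

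Of the 39 genes, 5 were higher and 4 lower in Nae1T-KO (limma, Benjamini-Hochberg adjusted p under 0.05 over all 13819 genes tested), and 30 did not pass. The count of higher genes rested on single libraries: 2 genes were called higher when Nae1T-KO replicate 2 was left out, and 1 when either Nae1WT replicate 2 or replicate 3 was, while the count of lower genes was 4 or 5 in the 6 fits that left out 1 library. The 5 higher genes were Cd5, Cd28, Sos1, Zap70 and Ptpn22, and the 4 lower genes were Themis, Ubash3a, Cd3g and Dgkz. The called share was 23.1% of the 39, against 12.7% of all genes tested (6.53% higher and 6.18% lower) and 15.6% of the 5585 tested genes whose mean reached that of the least abundant of the 39. All 9 changes were smaller than 2-fold. The median log2 fold change over the 39 genes was -0.0046 and over all tested genes -0.0061, and the median absolute log2 fold change was 0.14 against 0.19 over all tested genes. The groups did not overlap for 13 of the 39 genes (33.3%), 8 higher and 5 lower, against 33.7% of all tested genes, a share close to the background. Higher and lower calls were split among the roles: receptor chains had 0 higher and 1 lower of 6, accessory receptors 2 and 0 of 4, proximal kinases with CD45 1 and 0 of 5, adaptors and effectors 1 and 1 of 10, the NFAT and CARMA arm 0 and 0 of 6, and negative regulators 1 and 2 of 8.

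**Figure D1:**
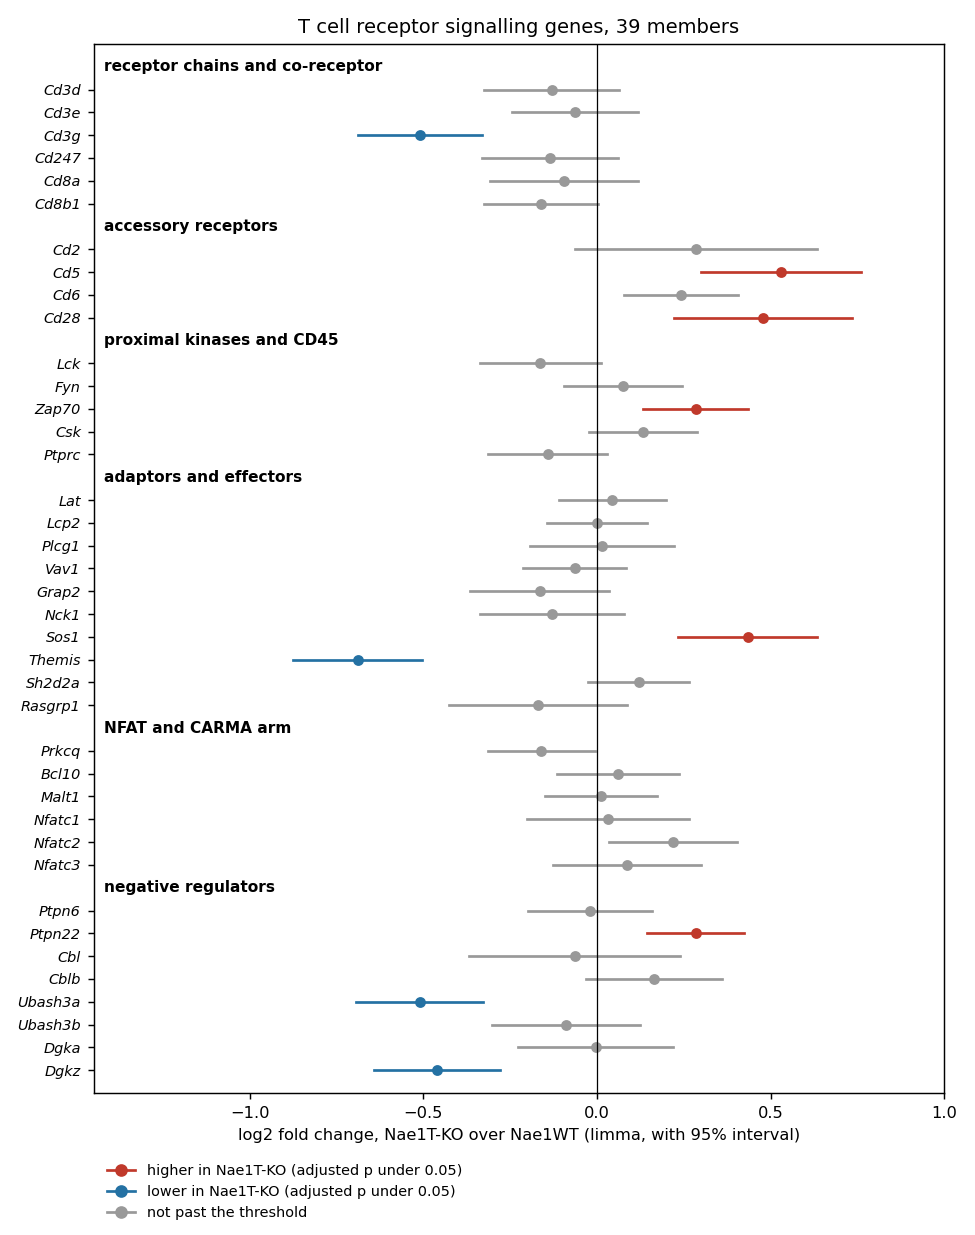
Log2 fold change of each of the 39 genes, Nae1T-KO over Nae1WT, with its 95% interval (horizontal axis, log2 units), grouped by role. The 5 higher and 4 lower genes past the threshold are coloured, and values ran from -0.69 for Themis to 0.53 for Cd5.

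**Figure D2:**
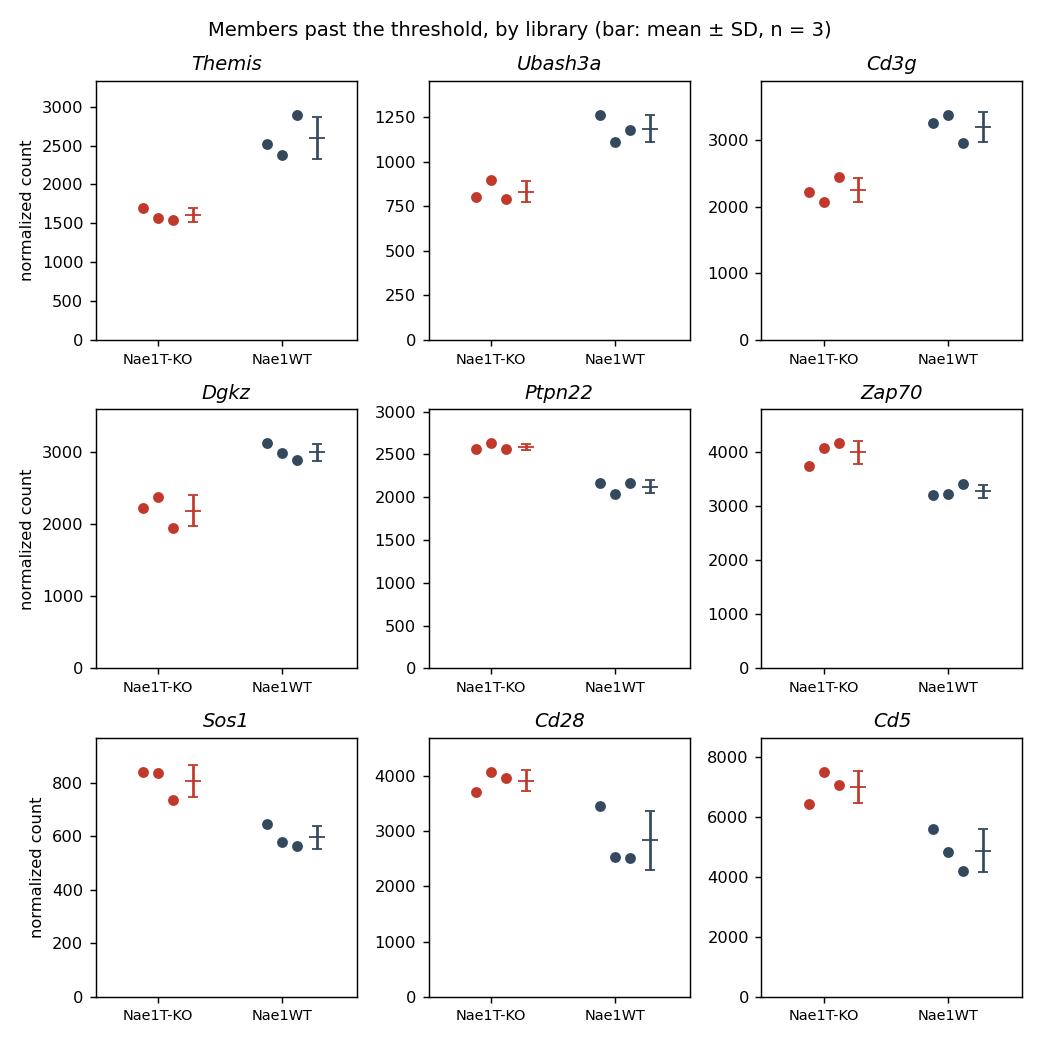
Normalized count of the 9 genes past the threshold in each library (vertical axes start at 0), Nae1T-KO left and Nae1WT right, with mean ± SD (n = 3). In each panel all 3 Nae1T-KO libraries lie on one side of all 3 Nae1WT libraries.

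Among the receptor chains, Cd3g was lower in Nae1T-KO and the other 5 chains did not pass the test. Cd3g encodes the gamma chain of the CD3 module, which pairs with CD3 epsilon and takes part in assembly and internalization of the receptor. Cd3g had normalized counts of 2226, 2081 and 2445 across Nae1T-KO libraries, against 3261, 3386 and 2959 across Nae1WT libraries. Every Nae1T-KO library lay below every Nae1WT library. The means were 2250.3 ± 183 in Nae1T-KO and 3202 ± 219 in Nae1WT (SD, n = 3 each), a level 1.423-fold lower, with a log2 fold change of -0.51 (SE 0.08, limma adjusted p = 0.00365). Pairs of libraries read as the same sex, 4 in all, differed by -0.51 to -0.41 on the log2 scale. Nae1WT replicate 3 is in every female pair and Nae1T-KO replicate 3 in every male pair. The pairs are thus not independent, here and for the genes below.

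Cd3d, Cd3e and Cd247, the partner chains, did not pass the test. Cd3d, which encodes CD3 delta, had normalized counts of 2975, 2851 and 3357 across Nae1T-KO libraries, against 3444, 3611 and 3007 across Nae1WT libraries, and its groups overlapped. Its log2 fold change was -0.13 (95% interval -0.33 to 0.06, limma adjusted p = 0.358). Cd3e, which encodes CD3 epsilon, had normalized counts of 1983, 2062 and 2070.0 across Nae1T-KO libraries, against 2359.9, 2143 and 1914 across Nae1WT libraries, with a log2 fold change of -0.06 (95% interval -0.25 to 0.12, limma adjusted p = 0.650). The groups overlapped here too, and Nae1WT replicate 3 was the lowest of the 6 libraries. Cd247, which encodes the zeta chain with its several tyrosine motifs, had normalized counts of 2746, 2253 and 2594 across Nae1T-KO libraries, against 2544, 2959 and 2827 across Nae1WT libraries, with overlapping groups and a log2 fold change of -0.14 (95% interval -0.33 to 0.06, limma adjusted p = 0.344). Within single libraries, the log2 ratio of Cd3g to Cd3d was -0.42, -0.45 and -0.46 across Nae1T-KO libraries against -0.08, -0.09 and -0.02 across Nae1WT libraries. The mean ratio was -0.44 ± 0.02 in Nae1T-KO and -0.06 ± 0.04 in Nae1WT (SD, n = 3 each). The log2 ratio of Cd3g to Cd3e was 0.17, 0.01 and 0.24 across Nae1T-KO libraries against 0.47, 0.66 and 0.63 across Nae1WT libraries, and that of Cd3g to Cd247 was -0.30, -0.12 and -0.09 across Nae1T-KO libraries against 0.36, 0.19 and 0.07 across Nae1WT libraries. In all 3 ratios every Nae1T-KO library was below every Nae1WT library. These ratios were chosen after the values of Cd3g were seen and are given without a test.

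Per kilobase of annotated exon, the order of the CD3 and zeta chains by group mean was Cd3d, Cd3g, Cd3e, Cd247 in both groups. Cd247 was nevertheless above Cd3e in Nae1T-KO replicate 1 and in Nae1WT replicates 2 and 3. Cd3d stood at 1687 ± 146 in Nae1T-KO and 1848 ± 172 in Nae1WT normalized counts per kb (SD, n = 3 each), Cd3g at 688 ± 56.1 in Nae1T-KO and 979.5 ± 67.1 in Nae1WT, Cd3e at 499.6 ± 11.8 in Nae1T-KO and 524 ± 54.7 in Nae1WT and Cd247 at 475 ± 47.3 in Nae1T-KO and 521 ± 39.8 in Nae1WT. Cd3e and Cd247 did not differ beyond their spread in either group. These levels use the union of all GENCODE exons of a gene, which includes rarely used exons, so they understate genes with many annotated isoforms. Cd8a and Cd8b1 encode the alpha and beta chains of the CD8 co-receptor, which binds MHC class I and carries LCK. Cd8a had normalized counts of 6079.7, 7247 and 7654 across Nae1T-KO libraries, against 8186, 7097 and 7067 across Nae1WT libraries, with overlapping groups and a log2 fold change of -0.09 (95% interval -0.31 to 0.12, limma adjusted p = 0.557). Cd8b1 had normalized counts of 3672, 3689.8 and 4237 across Nae1T-KO libraries, against 4434, 4147 and 4376 across Nae1WT libraries, also overlapping, with a log2 fold change of -0.16 (95% interval -0.33 to 0.00, limma adjusted p = 0.176). Without Nae1T-KO replicate 3 Cd8b1 passed as lower (log2 fold change -0.23, adjusted p = 0.0406). Per kb Cd8b1 stood at 2607 ± 217 in Nae1T-KO and 2912 ± 102 in Nae1WT, the highest of the 39 genes in both groups, and Cd8a at 1923 ± 225 in Nae1T-KO and 2048 ± 175 in Nae1WT.

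**Figure D3:**
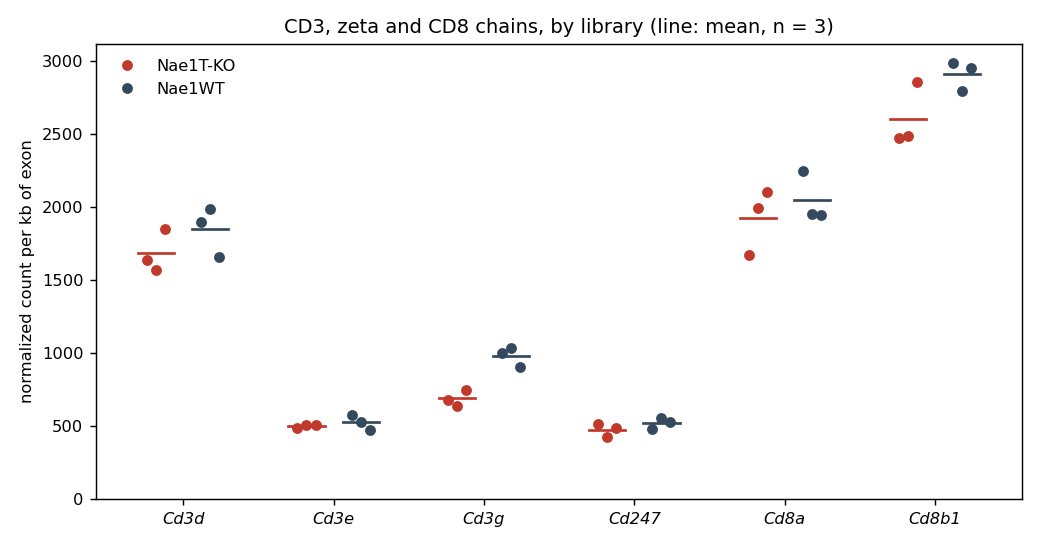
Normalized count per kb of exon (vertical axis) of the CD3, zeta and CD8 chains in each library, Nae1T-KO left and Nae1WT right of each pair, with the mean as a line. The groups are apart for Cd3g and overlap for the other 5 chains.

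Cd3g, Cd3d and Cd3e lie side by side on chromosome 9 (GRCm38: Cd3g chr9:44969572-44980431, minus strand; Cd3d chr9:44981769-44987052, plus strand; Cd3e chr9:44998735-45009663, minus strand). Cd3g and Cd3d are transcribed away from each other from outer gene ends 1338 bp apart, yet had log2 fold changes of -0.51 and -0.13. Their promoter windows are shown to let the neighbouring start regions be compared. Each window runs from 250 bases before to 50 bases after a transcript start given by RefSeq (GRCm38.p6), 5′ to 3′ on the gene's strand. That start is the outer end of the gene as printed above for Cd3g, and lies 17 bases inside it for Cd3d and 52 bases inside it for Cd3e. Capitals mark matches on either strand to 4 motifs: GGAAGT (an ETS core), CAGNTG (an E box form bound by E proteins), GGGCGG (a GC box) and GGAAAA (an NFAT core). A palindromic E box was counted once, and GGAAGT and GGAAAA cannot match the same bases on the same strand.
Cd3g chr9:44980382-44980681 minus strand: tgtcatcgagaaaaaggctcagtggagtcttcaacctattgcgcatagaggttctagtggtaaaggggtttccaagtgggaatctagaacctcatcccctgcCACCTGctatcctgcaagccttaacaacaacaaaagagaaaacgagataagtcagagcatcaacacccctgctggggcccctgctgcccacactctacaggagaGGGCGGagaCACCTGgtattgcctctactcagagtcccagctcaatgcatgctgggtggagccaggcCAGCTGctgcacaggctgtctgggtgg
Cd3d chr9:44981536-44981835 plus strand: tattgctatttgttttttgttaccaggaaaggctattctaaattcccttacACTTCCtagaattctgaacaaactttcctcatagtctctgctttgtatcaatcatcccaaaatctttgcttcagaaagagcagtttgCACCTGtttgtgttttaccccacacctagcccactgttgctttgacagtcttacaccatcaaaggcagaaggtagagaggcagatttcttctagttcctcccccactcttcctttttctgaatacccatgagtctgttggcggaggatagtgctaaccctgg
Cd3e chr9:45009562-45009861 minus strand: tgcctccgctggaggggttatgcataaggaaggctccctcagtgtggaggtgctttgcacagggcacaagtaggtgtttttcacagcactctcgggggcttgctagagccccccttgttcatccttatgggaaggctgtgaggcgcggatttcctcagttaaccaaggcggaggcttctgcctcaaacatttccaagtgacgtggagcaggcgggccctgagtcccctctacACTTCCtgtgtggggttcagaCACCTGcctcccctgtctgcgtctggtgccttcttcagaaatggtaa

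The Cd3g window held 3 E box matches, 1 GC box and 0 ETS cores, whereas the Cd3d and Cd3e windows each held 1 E box match, 1 ETS core and 0 GC boxes. Promoter windows were given for 32 of the 39 genes, 47 windows in all, with several windows for some genes. Some windows of the same gene, such as those of Ptprc, overlap and share a match, so the windows are not independent. The ETS core was in 40.4% of these 47 windows and 23.8% of all 32851 mouse promoter windows of the same length, the E box in 55.3% and 51.4%, the GC box in 44.7% and 35.7%, and the NFAT core in 19.1% and 23.4%. A match describes letters in the window and is not a measured binding site.

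The accessory receptors all had positive log2 fold changes, and Cd5 and Cd28 passed the test as higher in Nae1T-KO. Cd5 encodes a scavenger receptor family protein that dampens T cell receptor signals and whose surface level follows their strength. Cd5 had normalized counts of 6433, 7513 and 7065 across Nae1T-KO libraries, against 5606, 4837 and 4187 across Nae1WT libraries. All 3 Nae1T-KO libraries lay above all 3 Nae1WT libraries, with the smallest gap between Nae1T-KO replicate 1 and Nae1WT replicate 1. The means were 7004 ± 542 in Nae1T-KO and 4877 ± 710.3 in Nae1WT (SD, n = 3 each), a level 1.436-fold that of Nae1WT, with a log2 fold change of 0.53 (SE 0.10, limma adjusted p = 0.0104). Same-sex pairs differed by 0.33 to 0.84 on the log2 scale. The call held in all 17 alternatives, with adjusted p from 6.37e-05 to 0.0471.

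Cd28 encodes the receptor for B7 ligands that gives the classical second signal. Cd28 had normalized counts of 3699, 4072 and 3950.2 across Nae1T-KO libraries, against 3449, 2535 and 2513 across Nae1WT libraries. The groups did not overlap, but Nae1WT replicate 1 stood well above the other Nae1WT libraries. The log2 fold change was 0.48 (SE 0.11, limma adjusted p = 0.0245), and same-sex pairs differed by 0.20 to 0.70. The call ended without Nae1T-KO replicate 2 (adjusted p = 0.0889), Nae1T-KO replicate 3 (0.0728), Nae1WT replicate 2 (0.0922) or Nae1WT replicate 3 (0.0834), over an adjusted p range of 0.00169 to 0.0922 in the 17 alternatives.

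Cd6, a relative of Cd5 that binds ALCAM and lies 50312 bp from it on chromosome 19, had normalized counts of 8396, 8441 and 7929.7 across Nae1T-KO libraries, against 7578, 6911 and 6492 across Nae1WT libraries. Its groups did not overlap and its log2 fold change was 0.24 (95% interval 0.08 to 0.40, limma adjusted p = 0.0565), which did not pass. It passed with total-count scaling (log2 fold change 0.29, adjusted p = 0.0353), in DESeq2 on the recovered reads (log2 fold change 0.24, adjusted p = 0.0280) and without Nae1T-KO replicate 3 (log2 fold change 0.27, adjusted p = 0.0428) or Nae1WT replicate 1 (log2 fold change 0.30, adjusted p = 0.0387), over an adjusted p range of 0.0280 to 0.234. Cd2, an adhesion receptor for CD48 in the mouse, had normalized counts of 3124, 2144 and 2187 across Nae1T-KO libraries, against 2073, 1744 and 2241 across Nae1WT libraries. Nae1T-KO replicate 1 was the highest library and the groups overlapped, with a log2 fold change of 0.28 (95% interval -0.06 to 0.63, limma adjusted p = 0.254). The RefSeq promoter window of Cd5, the gene with the largest increase of the 39, is shown with the same motifs in capitals, and held 2 E boxes and 1 ETS core. Its start lies 52 bases inside the outer end of the gene.
Cd5 chr19:10738925-10739224 minus strand: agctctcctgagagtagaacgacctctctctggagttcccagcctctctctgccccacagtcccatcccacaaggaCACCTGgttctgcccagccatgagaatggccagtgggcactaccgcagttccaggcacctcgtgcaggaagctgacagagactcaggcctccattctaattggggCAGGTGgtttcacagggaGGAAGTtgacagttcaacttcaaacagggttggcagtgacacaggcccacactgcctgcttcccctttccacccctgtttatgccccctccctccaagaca

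Of the proximal kinases and CD45, Zap70 was higher in Nae1T-KO and 4 genes did not pass. Zap70 encodes the kinase that docks on phosphorylated CD3 and zeta chains. The gene overlaps the opposite-strand gene Gm18828, which averaged 18.4 normalized counts across Nae1T-KO libraries and 20.6 across Nae1WT libraries. Zap70 had normalized counts of 3736, 4059 and 4152 across Nae1T-KO libraries, against 3191, 3211 and 3406 across Nae1WT libraries. The Nae1T-KO libraries all lay above the Nae1WT libraries, by a small margin. The means were 3982 ± 219 in Nae1T-KO and 3269.6 ± 119 in Nae1WT (SD, n = 3 each), a 1.218-fold level, with a log2 fold change of 0.28 (SE 0.07, limma adjusted p = 0.0227) and same-sex differences of 0.13 to 0.38. Among the fits that left out 1 library, the call ended without Nae1T-KO replicate 2 (adjusted p = 0.0664), or any Nae1WT replicate, whether 1 (0.0660), 2 (0.0922) or 3 (0.0545), over a range of 0.00480 to 0.272 in the 17 alternatives.

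Lck, which encodes the kinase that starts receptor signalling, had normalized counts of 6316, 5985 and 5249 across Nae1T-KO libraries, against 6640.2, 6268 and 6704 across Nae1WT libraries. Nae1T-KO replicate 3 was the lowest library and the groups overlapped, with a log2 fold change of -0.16 (95% interval -0.34 to 0.01, limma adjusted p = 0.196). Fyn, the second SRC family kinase of the receptor, had 3758 to 4326 normalized counts across Nae1T-KO libraries and 3693 to 4159 across Nae1WT libraries, and a log2 fold change of 0.08 (95% interval -0.09 to 0.25, limma adjusted p = 0.559). Csk, whose product places the inhibitory phosphate on LCK and FYN, had 3787 to 4296 in Nae1T-KO and 3622 to 3869 in Nae1WT, and 0.13 (95% interval -0.02 to 0.29, limma adjusted p = 0.239). Ptprc, which encodes the phosphatase CD45 that removes that phosphate, had the most normalized counts of the 39 genes, 21851 to 24923 in Nae1T-KO and 24110.3 to 26648 in Nae1WT, with -0.14 (95% interval -0.31 to 0.03, limma adjusted p = 0.251). All of these ranges overlapped between the groups.

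Among 10 adaptors and effectors, Themis was lower and Sos1 higher in Nae1T-KO. Themis encodes an adaptor of T lineage cells that binds GRB2 and SHP-1 and is needed for normal thymocyte selection. Themis had normalized counts of 1703, 1575 and 1544 across Nae1T-KO libraries, against 2521, 2381 and 2897 across Nae1WT libraries. The highest Nae1T-KO library stood far below the lowest Nae1WT library. The means were 1607 ± 84.5 in Nae1T-KO and 2599.7 ± 267 in Nae1WT (SD, n = 3 each), a level 1.617-fold lower, and the log2 fold change of -0.69 (SE 0.08, limma adjusted p = 0.00103) was the largest in size of the 39 genes. Same-sex pairs differed by -0.88 to -0.62, and the call held in all 17 alternatives, with adjusted p from 1.85e-10 to 0.0327. Its gene lies at chr10:28668360-28883820, plus strand in GRCm38. The first of its RefSeq promoter windows is shown because of this decrease, and held 1 E box and none of the other 3 motifs.
Themis chr10:28668110-28668409 plus strand: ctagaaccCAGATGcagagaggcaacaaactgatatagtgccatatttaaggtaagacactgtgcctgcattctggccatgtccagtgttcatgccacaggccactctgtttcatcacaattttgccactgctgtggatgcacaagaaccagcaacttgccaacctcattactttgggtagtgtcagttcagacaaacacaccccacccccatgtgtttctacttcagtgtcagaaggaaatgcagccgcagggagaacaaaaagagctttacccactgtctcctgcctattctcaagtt

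Sos1 encodes an exchange factor that loads RAS with GTP and reaches LAT through GRB2. Sos1 had normalized counts of 841, 838 and 736 across Nae1T-KO libraries, against 645, 579 and 564 across Nae1WT libraries. The groups did not overlap. The means were 805 ± 59.7 in Nae1T-KO and 596 ± 42.8 in Nae1WT (SD, n = 3 each), a 1.351-fold level, with a log2 fold change of 0.43 (SE 0.09, limma adjusted p = 0.0126) and same-sex differences of 0.19 to 0.58. Of the fits that left out 1 library, the call ended without Nae1WT replicate 2 (adjusted p = 0.0516) or Nae1WT replicate 3 (0.0571). Over all 17 alternatives, its adjusted p ran from 0.00146 to 0.107. Sos1 overlaps the opposite-strand gene Arhgef33, which averaged 30.0 normalized counts across Nae1T-KO libraries and 33.3 across Nae1WT libraries.

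The scaffolds at the centre of the complex did not pass. Lat, which encodes the membrane scaffold phosphorylated by ZAP70, had normalized counts of 5869, 6129 and 6546 across Nae1T-KO libraries, against 5776, 6338 and 5869 across Nae1WT libraries, with a log2 fold change of 0.04 (95% interval -0.11 to 0.20, limma adjusted p = 0.721). Lcp2, which encodes its partner SLP-76, had normalized counts of 5808, 5904 and 6166 across Nae1T-KO libraries, against 5810.2, 6255 and 5826 across Nae1WT libraries, and -0.00 (95% interval -0.14 to 0.14, limma adjusted p = 0.996). The groups overlapped in both. Plcg1, which encodes the phospholipase that releases the calcium signal, had 0.01 (95% interval -0.19 to 0.22, limma adjusted p = 0.943). Vav1, an exchange factor for RAC, had -0.06 (95% interval -0.21 to 0.08, limma adjusted p = 0.566). Grap2, which encodes the adaptor GADS that joins SLP-76 to LAT, had -0.17 (95% interval -0.37 to 0.04, limma adjusted p = 0.256). Nck1, an adaptor that recruits actin regulators, had -0.13 (95% interval -0.34 to 0.08, limma adjusted p = 0.391), and Rasgrp1, which encodes the diacylglycerol-dependent RAS exchange factor, -0.17 (95% interval -0.43 to 0.09, limma adjusted p = 0.363). Sh2d2a, which encodes the LCK-binding adaptor TSAd, had normalized counts of 4656, 4939 and 5136 across Nae1T-KO libraries, against 4365, 4596 and 4593 across Nae1WT libraries. Its groups did not overlap, but its log2 fold change of 0.12 (95% interval -0.03 to 0.26, limma adjusted p = 0.257) did not pass.

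In the NFAT and CARMA arm none of 6 genes passed in limma, and 2 had an unadjusted p under 0.05, with 0 called in edgeR and 0 in DESeq2 on the recovered reads. Of all 13819 genes tested, 12.7% were called in limma and 4024 had an unadjusted p under 0.05. With 6 genes, these counts do not set the arm apart from that background. Nfatc2, which encodes NFAT1, present before activation, had normalized counts of 927, 1007 and 930.0 across Nae1T-KO libraries, against 898, 785 and 781 across Nae1WT libraries. All Nae1T-KO libraries lay above all Nae1WT libraries, with a log2 fold change of 0.22 (95% interval 0.03 to 0.40, limma adjusted p = 0.112). Prkcq, which encodes the kinase PKC theta upstream of CARMA1, had normalized counts of 1785, 1837 and 1902 across Nae1T-KO libraries, against 2203, 1991 and 1986 across Nae1WT libraries, with every Nae1T-KO library below every Nae1WT library and a log2 fold change of -0.16 (95% interval -0.32 to -0.01, limma adjusted p = 0.158). Nfatc1, which encodes the NFAT2 that is induced on activation, had 0.03 (95% interval -0.20 to 0.26, limma adjusted p = 0.880), and Nfatc3, which encodes NFAT4, 0.09 (95% interval -0.13 to 0.30, limma adjusted p = 0.600). Bcl10 and Malt1, which encode the adaptor and the protease of the CARMA1 complex, had 0.06 (95% interval -0.12 to 0.24, limma adjusted p = 0.665) and 0.01 (95% interval -0.15 to 0.17, limma adjusted p = 0.940). The groups overlapped for these 4 genes.

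Negative regulators moved in both directions, with Ubash3a and Dgkz lower and Ptpn22 higher in Nae1T-KO. Ubash3a encodes STS-2, a T cell protein with a ubiquitin-binding domain that restrains receptor signals. Ubash3a had normalized counts of 801, 898 and 793 across Nae1T-KO libraries, against 1262, 1112 and 1177 across Nae1WT libraries. The groups were well apart. The means were 830.5 ± 58.6 in Nae1T-KO and 1184 ± 75.2 in Nae1WT (SD, n = 3 each), a level 1.425-fold lower, with a log2 fold change of -0.51 (SE 0.08, limma adjusted p = 0.00394) and same-sex differences of -0.67 to -0.39. The opposite-strand gene Rsph1, which overlaps it, averaged 7.70 normalized counts across Nae1T-KO libraries and 5.0 across Nae1WT libraries. Its paralogue Ubash3b, which encodes STS-1, a phosphatase acting on ZAP70, had normalized counts of 613, 620.4 and 553 across Nae1T-KO libraries, against 709.7, 598 and 598 across Nae1WT libraries. Those groups overlapped, and the log2 fold change was -0.09 (95% interval -0.30 to 0.12, limma adjusted p = 0.583).

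Dgkz encodes diacylglycerol kinase zeta, which removes the diacylglycerol that activates RASGRP1 and PKC theta. The gene overlaps Gm39876 (strand not given), which averaged 29.4 normalized counts across Nae1T-KO libraries and 45.7 across Nae1WT libraries. It also overlaps the same-strand Mir6999, which averaged 1.63 across Nae1T-KO libraries and 3.85 across Nae1WT libraries. Dgkz had normalized counts of 2229, 2376 and 1951 across Nae1T-KO libraries, against 3122, 2993 and 2885 across Nae1WT libraries. Every Nae1T-KO library was below every Nae1WT library. The means were 2185 ± 216 in Nae1T-KO and 3000.0 ± 119 in Nae1WT (SD, n = 3 each), a level 1.373-fold lower, with a log2 fold change of -0.46 (SE 0.08, limma adjusted p = 0.00588). Same-sex pairs differed by -0.68 to -0.28. Dgka, which encodes the alpha form of the same enzyme, had normalized counts of 1902, 2095 and 2339 across Nae1T-KO libraries, against 2389, 2069.8 and 1903 across Nae1WT libraries, with overlapping groups and a log2 fold change of -0.00 (95% interval -0.23 to 0.22, limma adjusted p = 0.983).

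Ptpn22 encodes the phosphatase PEP, which acts on LCK and ZAP70 together with CSK. Ptpn22 had normalized counts of 2563, 2631 and 2562 across Nae1T-KO libraries, against 2168, 2038 and 2168 across Nae1WT libraries. The groups did not overlap and the 3 Nae1T-KO libraries lay within a narrow range. The log2 fold change was 0.28 (SE 0.06, limma adjusted p = 0.0169), a 1.217-fold level, and same-sex pairs differed by 0.24 to 0.33. In the fits that left out 1 library, the call ended without Nae1T-KO replicate 2 (adjusted p = 0.0520), Nae1WT replicate 2 (0.0865) or Nae1WT replicate 3 (0.0576). Over all 17 alternatives, its adjusted p ran from 0.00342 to 0.216. Ptpn6, which encodes the phosphatase SHP-1, had -0.02 (95% interval -0.20 to 0.16, limma adjusted p = 0.893). The ubiquitin ligase genes Cbl and Cblb, whose products lower receptor and kinase activity, had -0.06 (95% interval -0.37 to 0.24, limma adjusted p = 0.799) and 0.16 (95% interval -0.03 to 0.36, limma adjusted p = 0.247). The groups overlapped for these 3 genes, and Cbl had its lowest and highest values, 2569 and 3844 normalized counts, both in Nae1T-KO libraries.

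Ratios of related genes were compared within libraries, where scaling between libraries cancels. For Ubash3a over Ubash3b the log2 ratio was 0.39, 0.53 and 0.52 across Nae1T-KO libraries against 0.83, 0.90 and 0.98 across Nae1WT libraries, a difference of -0.42. For Dgka over Dgkz it was -0.23, -0.18 and 0.26 across Nae1T-KO libraries against -0.39, -0.53 and -0.60 across Nae1WT libraries, a difference of 0.46, with Nae1T-KO replicate 3 above the other Nae1T-KO libraries. The groups were apart in both. They were also apart for Cblb over Cbl, with a difference of 0.23, and for Nfatc1 over Nfatc2, with -0.19. For these 4 the two-sided exact permutation p was 0.1, the smallest that 3 against 3 libraries allow, and 0.175 adjusted over the 7 ratios. The groups overlapped for Lck over Fyn, with a difference of -0.24 (exact p = 0.2), Nfatc2 over Nfatc3, with 0.13 (exact p = 0.2), and Cd8a over Cd8b1, with 0.07 (exact p = 0.5). With 3 libraries a group no ratio could reach an exact p under 0.05.

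**Figure D4:**
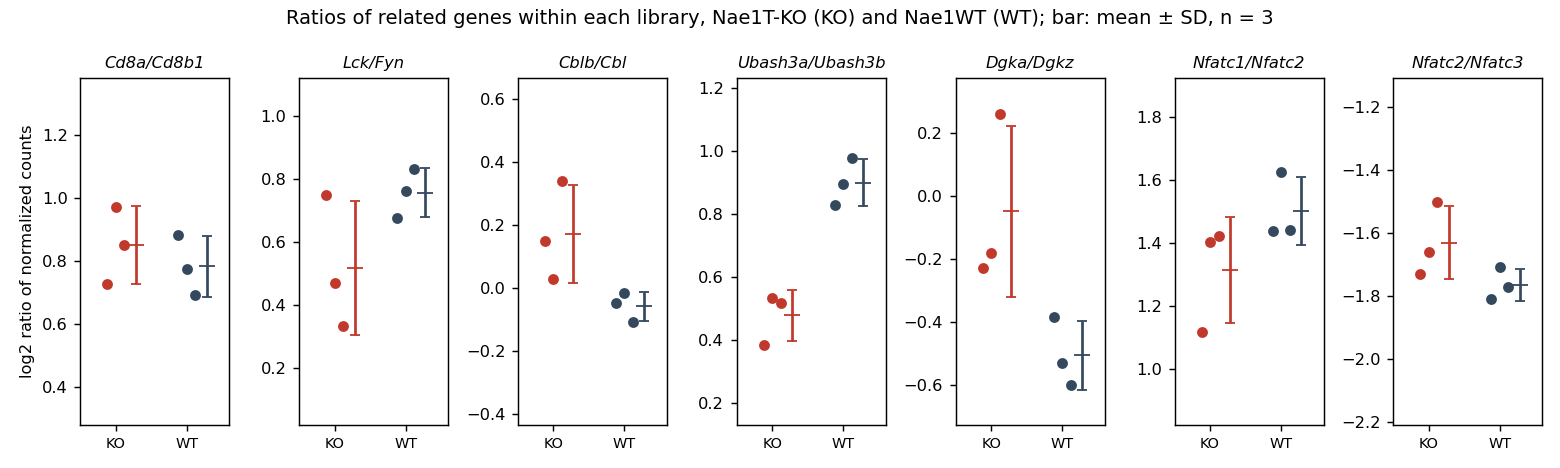
Log2 ratio of normalized counts of 7 pairs of related genes in each library (vertical axes of equal span, different offsets), Nae1T-KO left and Nae1WT right, with mean ± SD (n = 3). The groups are apart for Cblb/Cbl, Ubash3a/Ubash3b, Dgka/Dgkz and Nfatc1/Nfatc2 and overlap for the other 3.

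A list of 90 other genes of the pathway, of which 86 had values and 83 were tested, had 6 higher and 7 lower in Nae1T-KO, a called share of 15.7% against 12.7% of all genes tested. Leaving out Nae1T-KO replicate 3 raised the count of higher genes to 10, and leaving out any one of the other 5 libraries brought it to between 1 and 3, while the count of lower genes was 4 without Nae1WT replicate 1 or 2. The median log2 fold change of the 83 was -0.0073. Among the calls that averaged 5 CPM or more, the largest were decreases in 2 adaptor genes. Sh2d1a had normalized counts of 995, 746 and 691 across Nae1T-KO libraries, against 1666, 2116 and 2203 across Nae1WT libraries (log2 fold change -1.31, limma adjusted p = 0.00121), and encodes SAP, the adaptor of SLAM receptors. Sit1 had normalized counts of 112, 89.0 and 102 across Nae1T-KO libraries, against 219, 195 and 192 across Nae1WT libraries (log2 fold change -0.997, limma adjusted p = 0.00216), and encodes a transmembrane adaptor that restrains receptor signals. In both genes every Nae1T-KO library was below every Nae1WT library, and the call held in each of the 6 fits that left out 1 library.

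Smaller calls among these genes included the co-stimulatory receptor gene Cd226, with a log2 fold change of -0.45 (SE 0.07, limma adjusted p = 0.00371), and Was, which encodes the actin regulator WASP, with 0.35 (SE 0.07, limma adjusted p = 0.00781). Mapk3, which encodes the kinase ERK1, had 0.52 (SE 0.14, limma adjusted p = 0.0392), Pdpk1, which encodes the kinase PDK1, -0.42 (SE 0.10, limma adjusted p = 0.0221), and Tnfaip3, which encodes the ubiquitin-editing protein A20, -0.43 (SE 0.10, limma adjusted p = 0.0232). The calls of Mapk3, Pdpk1 and Tnfaip3 each ended in 3 or 4 of the fits that left out 1 library, with adjusted p up to 0.124, 0.0661 and 0.0818. None of the 20 tested genes of calcium entry, calcineurin, its regulators or the rest of the CARMA arm passed in limma, and 4 had an unadjusted p under 0.05, with 0 called in edgeR and 0 in DESeq2 on the recovered reads. Over all 13819 genes tested, 12.7% were called in limma and 4024 had an unadjusted p under 0.05.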

How the data were processed

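Normalized counts, a non-negative signal, were deposited by the authors in 1 table for 18288 gene symbols in 6 libraries. Per the submitters' processing notes, bcl2fastq, HISAT2, DESeq2 1.42.0 and the build mm10 were used. The read counter, its annotation, its strand setting and its handling of multi-mapped reads are not stated there, and 14 of the 39 genes overlap another measured gene. Deposited values were whole multiples of 1 step per library (tolerance 0.001 of a read, 100% of values whole), which gave back the reads. The step was taken as the smallest positive value, and for Nae1T-KO replicate 3 it was close to 1 (1.01). That step times the size factor recomputed from the recovered reads was 1, as in each other library.

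Genes with at least 10 normalized counts in at least 3 libraries were tested with limma 3.58.1 (R 4.3.3; trend, robust) on log2(normalized count + 1), which understates changes of low genes. All tests were two-sided. Genes with a Benjamini-Hochberg adjusted p under 0.05, over all genes tested, were called. On simulated counts over 13637 genes for Nae1T-KO against Nae1WT, with 200 genes changed, limma found 54.5% of 1.5-fold and 91.0% of 2-fold changes, and 11 of its 170 calls were false. The data gave 1757 calls, so the adjusted threshold was stricter in the simulation, and these shares do not carry over to the data. Alternatives (17) changed scaling, filter, pseudocount, test (edgeR 4.0.16, DESeq2 1.42.0), sex covariate or replicate block, or left out 1 library. The rule named Nae1, all 39 genes and up to 8 called genes of the other pathway list that changed most and averaged 5 CPM or more. One gene that the rule named is not reported here. Genes, lists and rules were chosen with earlier results of these data known. Coordinates are RefSeq GRCm38.p6 (39 symbols matched), exon lengths GENCODE M21 and promoter sequences RefSeq; mm10 is GRCm38.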

Additional observations from a re-analysis of the deposited data

How the results depend on the processing

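Themis and Cd5 passed under each of the 17 alternatives, and Cd3g, Ubash3a and Dgkz under each but the block on 4 libraries. TMM scaling, both filters, both pseudocounts, edgeR, DESeq2 and the sex covariate left the counts of the 39 genes at 5 or 6 higher and 4 lower. Leaving out 1 library gave 1 to 5 higher and 4 to 5 lower of the 39, 844 to 1790 of all genes, and 1 to 10 higher and 4 to 7 lower of the other pathway genes. Correlations of deviations between libraries with the same replicate number in their titles were -0.13, -0.177 and -0.266, none the best match of its library. Each of these pairs joined libraries read as unlike sex, so this check cannot tell whether the title numbers pair the libraries. The numbers in the library names are shared by 4 libraries. With the replicate block by title number, 3 of the 39 were higher and 4 lower, 968 of all genes were called, 1 other pathway gene was higher, and Zap70 (adjusted p = 0.0691) and Ptpn22 (0.0740) lost their calls. With the replicate block by library name, on 4 libraries, the counts were 2 higher and 1 lower of the 39, 253 of all genes, and 0 higher and 2 lower of the other pathway genes. That fit has fewer libraries, and in it Zap70 (adjusted p = 0.272), Ptpn22 (0.216), Sos1 (0.107), Cd3g (0.0961), Ubash3a (0.0572) and Dgkz (0.0531) lost their calls.

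Signs changed only for genes with log2 fold changes near 0 that did not pass in any fit. Lcp2 had 0.000742 with TMM scaling, 0.0466 with total-count scaling, 0.00179 in edgeR and 0.0199 with the sex covariate. With total-count scaling Ptpn6 had 0.0257 and Dgka 0.0427. With the sex covariate Plcg1 had -0.0298, Ptpn6 0.0273 and Dgka 0.0709. With the block on 4 libraries Cd3e had 0.00054, Plcg1 -0.00814, Nfatc1 -0.0186, Ptpn6 0.0379 and Dgka 0.088. Over the fits that left out 1 library, the log2 fold change ran from -0.142 to 0.00903 for Cd3e, -0.163 to 0.00295 for Cd8a, -0.0255 to 0.0342 for Lcp2, -0.0611 to 0.0975 for Plcg1, -0.0349 to 0.0591 for Malt1, -0.0521 to 0.149 for Nfatc1, -0.108 to 0.0281 for Ptpn6, -0.201 to 0.09 for Cbl and -0.0807 to 0.0847 for Dgka. The cause was not tested. With 3 libraries a group, 54.5% of simulated 1.5-fold changes were recovered when 200 genes were changed. The data had 1757 calls and so a less strict adjusted threshold, and this share does not carry over to them. Small changes may still have been missed.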

Other observations

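Syk, which encodes the relative of ZAP70 used by B and myeloid cells, was a low-level member of the other pathway list outside the rule for named genes and was chosen after its values were seen. It had normalized counts of 48.1, 78.4 and 42.4 across Nae1T-KO libraries, against 20.9, 15.7 and 28.9 across Nae1WT libraries. All 3 Nae1T-KO libraries lay above all 3 Nae1WT libraries, with Nae1T-KO replicate 2 the highest, and the log2 fold change was 1.32 (SE 0.32, limma adjusted p = 0.0226) at a mean of 2.06 CPM. Summed B cell markers were also highest in Nae1T-KO replicate 2, at 623 normalized counts, and summed myeloid and dendritic cell markers did not overlap between the groups, with Nae1T-KO higher. Their part in the level of Syk was not tested. Zap70 stood at 3982 ± 219 in Nae1T-KO and 3269.6 ± 119 in Nae1WT (SD, n = 3 each) normalized counts.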
